A study of Homo sapiens with 8 samples.

Results

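The genes described here encode 10 proteins of human cells that carry amino acids across the plasma membrane or anchor such a carrier: SLC7A5, SLC3A2, SLC7A1, SLC7A6, SLC38A1, SLC38A2, SLC1A4, SLC1A5, SLC6A9 and SLC43A1. The members are all probe sets that the annotation of the array ties to 1 of these genes alone, which gave 25 of the 41091 probe sets with a single gene. They were measured in A549, an established line of human lung adenocarcinoma, on 8 Affymetrix 3' expression arrays. The 4 groups of 2 arrays, called biological replicates in the labels, were SRC-1 siRNA cells given glucose, SRC-1 siRNA cells without it, control siRNA cells given glucose and control siRNA cells without it. SRC-1 is the steroid receptor coactivator encoded by NCOA1, and a small interfering RNA (siRNA) lowers the mRNA it matches. All cells were transfected with DharmaFECT 1, kept for 36 h in medium with 10% dialyzed fetal calf serum, and then given DMEM with or without glucose and the same serum. No untransfected cells are among the groups, and how long the last medium stayed on the cells is not known here. The design asks how SRC-1 loss alters expression in each medium.

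Cells take up amino acids through exchangers, which swap 1 amino acid for another, and through carriers driven by sodium, which load the cell. SLC7A5 (LAT1) exchanges leucine and other large neutral amino acids and reaches the membrane only with the heavy chain SLC3A2 (4F2hc, CD98), which also anchors SLC7A6. SLC38A1, SLC38A2 and SLC1A5 supply glutamine and other small neutral amino acids, which exchangers can use as counter-substrate, and amino acids inside the cell keep the kinase complex mTORC1 active. When eIF2alpha is phosphorylated in the integrated stress response, the factor ATF4 raises transcription of many such transporters through C/EBP-ATF response elements.

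For the members that changed most, and for SLC7A5, 1 promoter window each is shown, to be read beside the expression values. Any match to the core letters of that element, TGATGNAA, is marked. SLC3A2 and SLC1A4 have more than 1 window, and the one shown was picked because it holds a match. Sequences are from RefSeq (GRCh38.p14), run 5′ to 3′ from 250 bases before to 50 after an annotated start, and match all 10 members. Capitals mark matches to TGATGNAA or to the E-box CACGTG on either strand.
SLC3A2, chr11:62881449-62881748, plus strand: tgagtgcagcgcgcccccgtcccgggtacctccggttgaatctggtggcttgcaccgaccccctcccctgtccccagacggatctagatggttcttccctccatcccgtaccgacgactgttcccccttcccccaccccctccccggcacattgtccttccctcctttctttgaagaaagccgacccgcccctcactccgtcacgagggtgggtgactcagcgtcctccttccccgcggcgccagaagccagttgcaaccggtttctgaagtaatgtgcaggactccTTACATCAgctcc
SLC1A4, chr2:64989149-64989448, plus strand: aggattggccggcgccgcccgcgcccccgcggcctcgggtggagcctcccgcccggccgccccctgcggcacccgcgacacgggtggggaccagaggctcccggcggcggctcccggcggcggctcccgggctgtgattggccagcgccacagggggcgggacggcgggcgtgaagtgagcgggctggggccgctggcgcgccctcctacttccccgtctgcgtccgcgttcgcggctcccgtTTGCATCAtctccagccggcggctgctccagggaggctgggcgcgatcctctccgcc
SLC7A1, chr13:29595639-29595938, minus strand: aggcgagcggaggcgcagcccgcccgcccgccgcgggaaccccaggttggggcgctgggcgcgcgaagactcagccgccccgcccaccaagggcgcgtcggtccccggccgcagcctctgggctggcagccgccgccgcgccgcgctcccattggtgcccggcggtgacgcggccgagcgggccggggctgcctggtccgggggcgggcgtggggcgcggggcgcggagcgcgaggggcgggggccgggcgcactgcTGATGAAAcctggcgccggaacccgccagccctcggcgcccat
SLC7A5, chr16:87869458-87869757, minus strand: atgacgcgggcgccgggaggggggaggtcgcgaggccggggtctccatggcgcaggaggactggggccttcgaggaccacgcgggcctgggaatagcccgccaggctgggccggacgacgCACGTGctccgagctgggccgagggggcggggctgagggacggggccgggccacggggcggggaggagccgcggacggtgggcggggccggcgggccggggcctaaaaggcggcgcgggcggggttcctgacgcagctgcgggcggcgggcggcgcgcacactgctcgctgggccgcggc
SLC7A6, chr16:68264276-68264575, plus strand: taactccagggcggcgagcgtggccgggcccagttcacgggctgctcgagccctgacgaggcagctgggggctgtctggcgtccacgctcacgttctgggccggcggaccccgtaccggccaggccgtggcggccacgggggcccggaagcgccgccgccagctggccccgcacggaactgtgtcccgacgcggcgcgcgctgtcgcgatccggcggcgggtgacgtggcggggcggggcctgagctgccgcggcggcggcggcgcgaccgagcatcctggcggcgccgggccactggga

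TGATGNAA was found in at least 1 window of 5 of the 10 genes, and in 4.46% of the 27305 genes with a window. By window the count was 5 of the members' 17 windows, and 3.62% of all 35116. SLC3A2 held it in 1 of 3 windows, the one shown, as TGATGTAA on the opposite strand at bases 288 to 295. SLC1A4 held TGATGCAA in 1 of 2 windows, the one shown, on the opposite strand at bases 244 to 251, across the annotated start. SLC7A1 held TGATGAAA at bases 258 to 265 of its only window. SLC38A1 held TGATGAAA in 1 of 2 windows and SLC1A5 held TGATGCAA in 1 of 3. The windows of SLC7A5, SLC7A6, SLC38A2, SLC6A9 and SLC43A1 did not hold these letters. Sequence outside the 250 bases before and 50 after an annotated start was not searched, so these genes may hold them elsewhere. CACGTG was found for SLC7A5, SLC1A5 and SLC43A1, that is 3 of 10 genes against 8.77% of all genes. The cAMP response element TGACGTCA (2.25% of genes) was found for 0 of 10. The motifs were chosen with the expression results known, some genes have several windows, and a match in letters is not a binding site.

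Values are log2 signals as deposited, so a difference of 1 is 2-fold. Levels of different members were not set against each other. A gene was represented by its brightest probe set, and probe sets with a mean below the 40th percentile of the single-gene probe sets (log2 4.80) were not tested. This left 13584 genes and, of the members, 9 genes on 22 probe sets. SLC6A9, the glycine transporter GlyT1, has a single probe set with a mean of log2 3.51 and was left out by this filter. Array medians lay between 4.97 and 5.01, and the 2 arrays of a group correlated at 0.997 to 0.998 over all probe sets. NCOA1 was 9.10-fold lower with SRC-1 siRNA in glucose (adjusted p = 1.44e-05, limma) and 8.78-fold lower without glucose (adjusted p = 1.65e-05) on its brightest probe set. Its other 3 probe sets were 4.57-fold to 6.21-fold lower with glucose and 4.02-fold to 5.04-fold lower without. The epithelial markers KRT8, KRT18, KRT19, EPCAM, CDH1 and CLDN4 passed the filter with mean signals between 5.81 and 14.3. Of 8 markers of blood, endothelial and fibroblast cells, 4 passed. The highest of them, PECAM1, had a mean of 5.80, level with CLDN4 at 5.81, so this check does not separate those 2. In RNA from whole cultures, fewer cells with an mRNA and less of it per cell cannot be told apart.

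Glucose lowered most of the tested transporters in both siRNA arms, raised SLC7A6, and left SLC7A5 and SLC38A2 without a call. With SRC-1 siRNA, 6 of the 9 tested genes were lower with glucose than without and 1 was higher (limma, Benjamini-Hochberg adjusted p under 0.05 over all genes). Of all genes 20.0% were called lower and 24.6% higher in that arm, 44.7% in all. With control siRNA the counts were again 6 lower and 1 higher, beside 21.6% lower and 23.6% higher over all genes, 45.2% in all. The genes called were the same 7 in both arms. The median change of the 9 was -0.37 with SRC-1 siRNA and -0.52 with control siRNA, beside 0.0059 and 0.00088 over all genes. The members were chosen with earlier results of these data known, so their contrast with all genes is a description. Arrays with and without glucose did not overlap for 8 of the 9 with SRC-1 siRNA and for 9 of the 9 with control siRNA. Over all genes 71.6% and 71.9% did not overlap, so separation of 2 arrays from 2 was common.

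**Figure D1:**
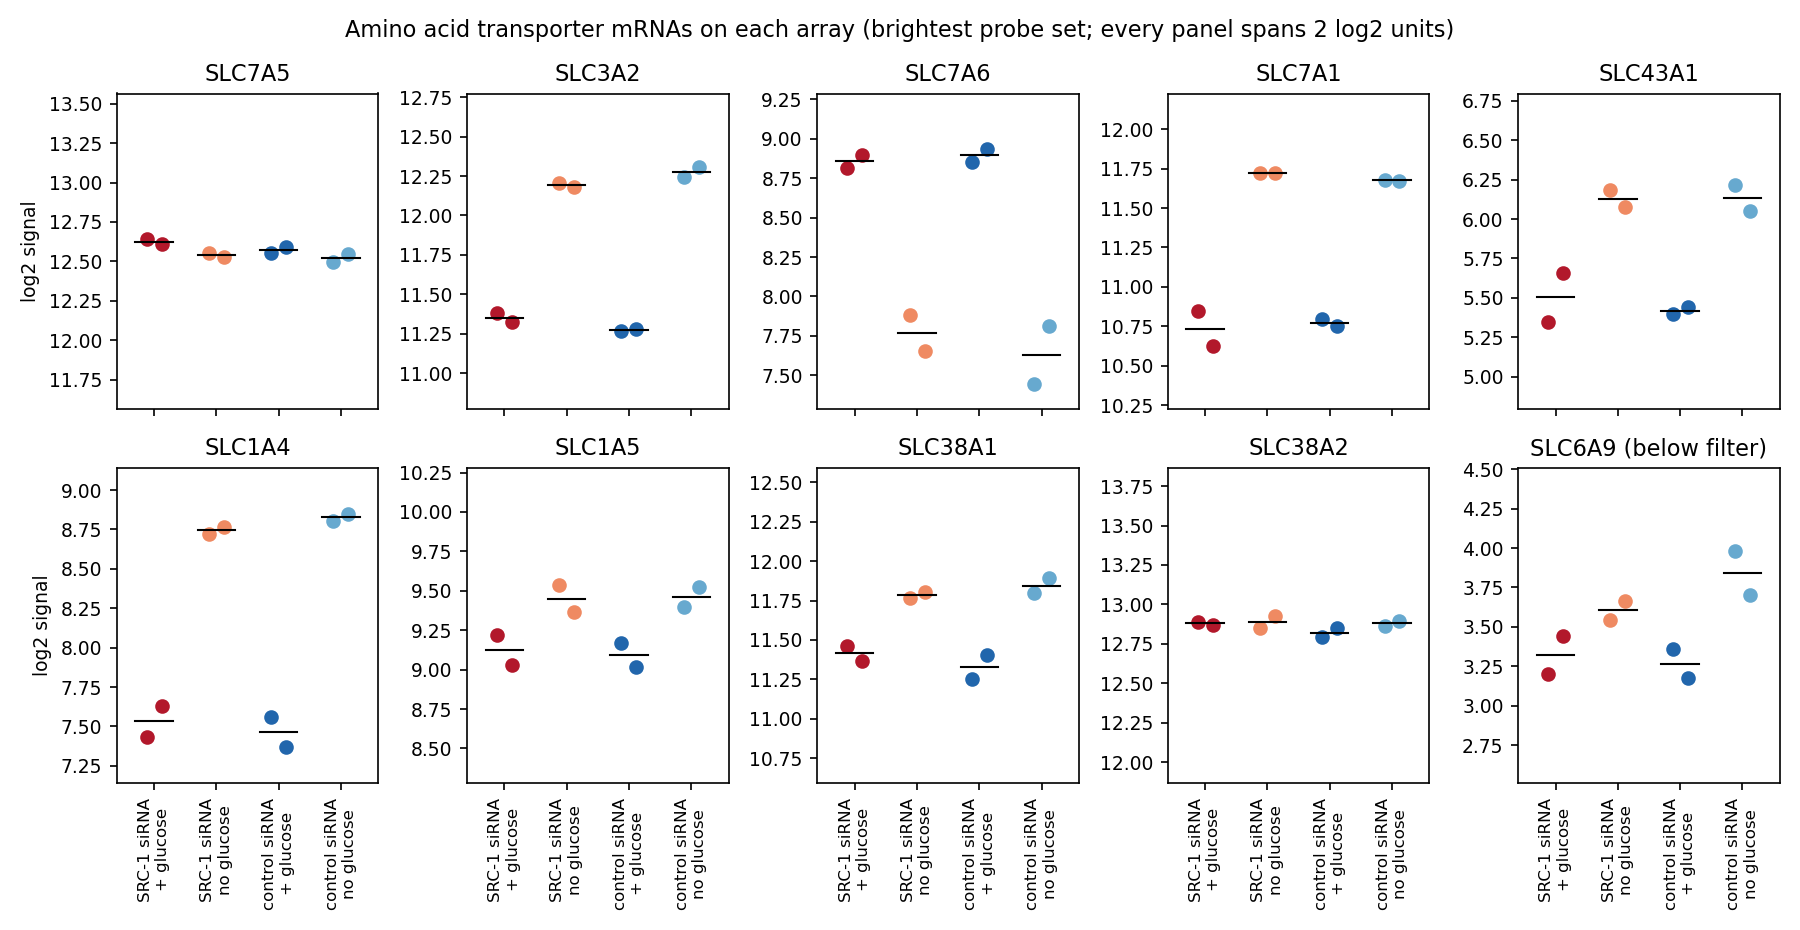
Log2 signal of the brightest probe set of each transporter gene (y axis, each panel spanning 2 units) on each array (points) in the 4 groups (x axis), with group means as lines. SLC1A4, SLC3A2 and SLC7A1 stand lower on all 4 arrays with glucose, SLC7A6 stands higher, and SLC7A5 and SLC38A2 span 0.147 and 0.134 log2 units over all 8 arrays.

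The heavy chain SLC3A2 was called lower with glucose, and its best known partner SLC7A5 was not called. SLC3A2 had signals of 11.38 and 11.32 with glucose against 12.21 and 12.18 without in SRC-1 siRNA cells. In control siRNA cells it had 11.27 and 11.28 with glucose against 12.25 and 12.31 without. Every array with glucose lay below every array without. It was 1.79-fold lower with SRC-1 siRNA (-0.84 ± 0.063, SE, n = 2 per group, limma adjusted p = 2.25e-05) and 2.005-fold lower with control siRNA (-1.003 ± 0.063, adjusted p = 9.45e-06). SLC7A5 had signals of 12.64 and 12.61 with glucose against 12.55 and 12.53 without in SRC-1 siRNA cells, and 12.55 and 12.59 against 12.50 and 12.55 in control siRNA cells. The arrays with glucose were slightly higher in each arm, but the differences of 0.086 ± 0.062 and 0.050 ± 0.062 did not pass (limma adjusted p = 0.306 and 0.555). The 95% intervals run from 0.96-fold to 1.17-fold with SRC-1 siRNA and from 0.94-fold to 1.14-fold with control siRNA. Each of these genes has a single probe set of the _s_at class, so no other probe set could be compared.

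SLC7A6 (y+LAT2), a light chain that also needs SLC3A2 and exchanges cationic for neutral amino acids, went the other way. Its signals were 8.82 and 8.90 with glucose against 7.88 and 7.65 without in SRC-1 siRNA cells. In control siRNA cells they were 8.86 and 8.94 with glucose against 7.44 and 7.81 without. The 4 arrays with glucose spanned 0.124, and all stood above the 4 without, which were more spread. SLC7A6 was 2.13-fold higher with SRC-1 siRNA (1.09 ± 0.13, limma adjusted p = 1.98e-04) and 2.41-fold higher with control siRNA (1.27 ± 0.13, adjusted p = 9.11e-05). The size depends on the probe set. The dimmest of its 3 probe sets rose by 0.81 ± 0.090 and 0.67 ± 0.090 in the SRC-1 and control arms. The remaining one was called with control siRNA (0.33 ± 0.095, adjusted p = 0.0225 over all probe sets) but not with SRC-1 siRNA (0.094 ± 0.095, adjusted p = 0.472). The mean of the 3 gave 0.67 ± 0.088 and 0.75 ± 0.088.

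SLC7A1 (CAT-1), the main uptake route for arginine and lysine in many cells, needs no heavy chain. Its signals were 10.85 and 10.62 with glucose against 11.72 and 11.72 without in SRC-1 siRNA cells. In control siRNA cells they were 10.80 and 10.75 with glucose against 11.68 and 11.67 without. The gap between the arrays with glucose and those without was 0.827. SLC7A1 was 1.98-fold lower with SRC-1 siRNA (-0.99 ± 0.081, limma adjusted p = 3.61e-05) and 1.87-fold lower with control siRNA (-0.90 ± 0.081, adjusted p = 5.96e-05). Of its 5 probe sets, 3 were called lower in both arms, a dimmer one was not called (-0.16 and -0.0068), and the dimmest was below the filter. The mean of the 4 tested was -0.69 with SRC-1 siRNA and -0.56 with control siRNA. SLC43A1 (LAT3), which carries leucine and its relatives without sodium or exchange, was dim, with signals of 5.35 and 5.66 with glucose against 6.19 and 6.07 without in SRC-1 siRNA cells. In control siRNA cells it had 5.40 and 5.44 against 6.22 and 6.05. It was 1.54-fold lower (-0.63 ± 0.11, limma adjusted p = 0.00182) and 1.64-fold lower (-0.71 ± 0.11, adjusted p = 8.91e-04).

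SLC1A4 (ASCT1), an exchanger of serine, alanine and cysteine, had the largest fall of the 9. Its signals were 7.43 and 7.63 with glucose against 8.72 and 8.77 without in SRC-1 siRNA cells. In control siRNA cells they were 7.56 and 7.37 with glucose against 8.81 and 8.85 without. All arrays with glucose lay below all arrays without, by a gap of 1.09. The fall was 2.32-fold with SRC-1 siRNA (-1.21 ± 0.091, limma adjusted p = 2.18e-05) and 2.57-fold with control siRNA (-1.36 ± 0.091, adjusted p = 1.29e-05). By size it ranked 174th and 130th among the genes that were lower. Falls of at least 2-fold were called for 2.03% of all genes with SRC-1 siRNA and 2.16% with control siRNA. The 3 brightest of its 5 probe sets gave values between -1.36 and -1.16 over both arms. The fourth was called with control siRNA (-0.47 ± 0.12, adjusted p = 0.0146 over all probe sets) and not with SRC-1 siRNA (-0.33 ± 0.12, adjusted p = 0.0579), and the fifth was below the filter.

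SLC1A5 (ASCT2), its paralog and a main glutamine exchanger of tumour cells, differed less. Its signals were 9.22 and 9.03 with glucose against 9.54 and 9.36 without in SRC-1 siRNA cells, and 9.17 and 9.01 against 9.39 and 9.52 in control siRNA cells. The groups did not overlap in either arm, with gaps of 0.146 and 0.228 beside 0.127 to 0.191 between the 2 arrays of a group. The differences were -0.33 ± 0.099 (limma adjusted p = 0.0260) and -0.37 ± 0.099 (adjusted p = 0.0159). This call rests on single arrays. With SRC-1 siRNA it was lost without replicate 1 of the group without glucose (-0.24, adjusted p = 0.158) and without replicate 2 of the group with glucose (-0.23, adjusted p = 0.150). With control siRNA it was lost without replicate 2 of the group with glucose (-0.29, adjusted p = 0.0933) and without replicate 2 of the group without (-0.30, adjusted p = 0.0979).

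The sodium-coupled carriers SLC38A1 (SNAT1) and SLC38A2 (SNAT2) are close relatives, and SLC38A2 is known for its induction when amino acids run short. SLC38A1 had signals of 11.46 and 11.37 with glucose against 11.77 and 11.80 without in SRC-1 siRNA cells, and 11.25 and 11.40 against 11.80 and 11.89 in control siRNA cells. All arrays with glucose were lower, by -0.37 ± 0.078 (limma adjusted p = 0.00472) and -0.52 ± 0.078 (adjusted p = 8.10e-04). Its 3 brighter probe sets were called lower in both arms, and the fourth, near the filter, was not (0.017 and 0.013). SLC38A2 had 12.89 and 12.87 with glucose against 12.85 and 12.93 without in SRC-1 siRNA cells, and 12.79 and 12.85 against 12.87 and 12.90 in control siRNA cells. The groups overlapped with SRC-1 siRNA, and the differences of -0.0072 ± 0.065 and -0.061 ± 0.065 did not pass (limma adjusted p = 0.940 and 0.484). The 95% intervals run from 0.90-fold to 1.10-fold and from 0.87-fold to 1.06-fold. None of its 3 probe sets was called, with values between -0.13 and -0.0072. All 3 are of the _s_at or _x_at class, so no probe set of another class could be compared.

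SLC6A9 had signals of 3.20 and 3.45 with glucose against 3.54 and 3.67 without in SRC-1 siRNA cells, and 3.36 and 3.17 against 3.98 and 3.70 in control siRNA cells. The arrays with glucose were lower in both arms. When no probe set was filtered out (19775 genes), the difference was -0.28 ± 0.13 with SRC-1 siRNA (limma adjusted p = 0.143) and -0.58 ± 0.13 with control siRNA (adjusted p = 0.00874). At this signal it was not shown that the probe set reads above its background.

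**Figure D2:**
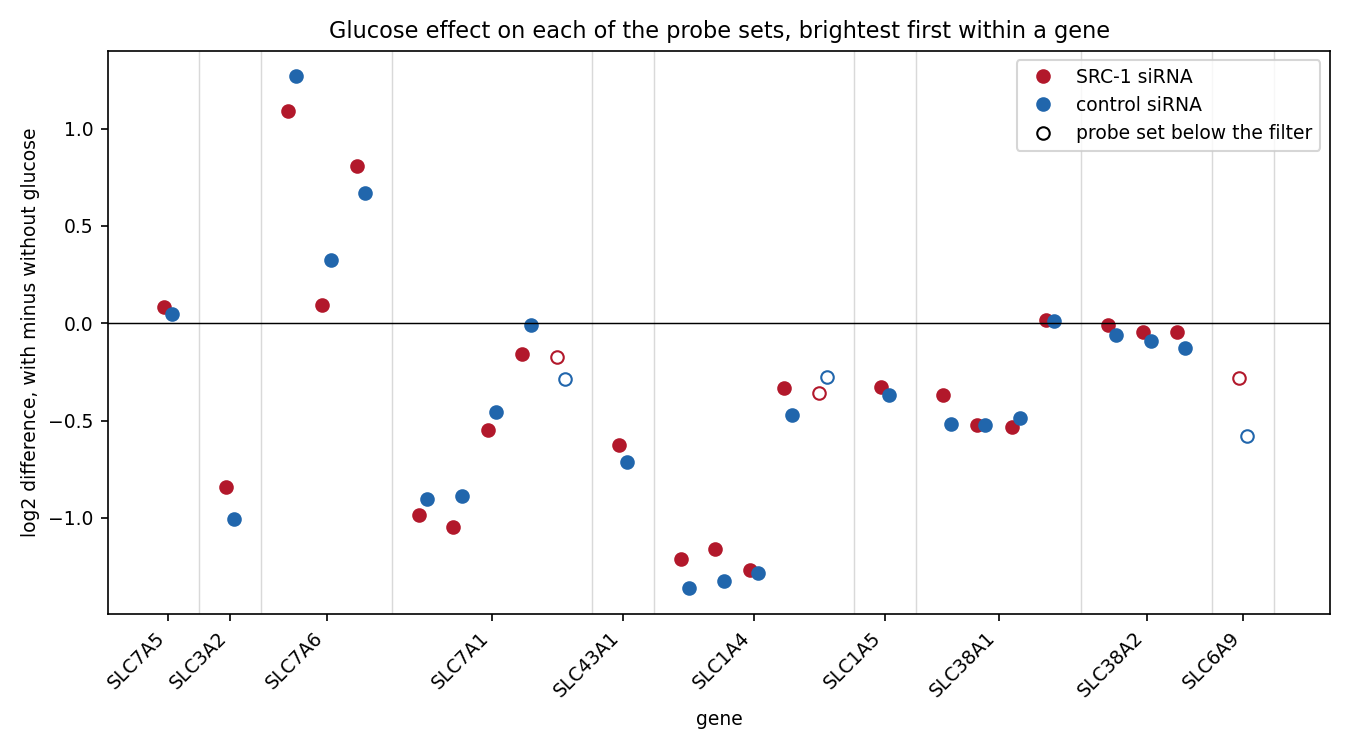
Log2 difference with minus without glucose (y axis) for all 25 probe sets by gene (x axis, brightest first), with SRC-1 siRNA in red and control siRNA in blue; open circles are the 3 probe sets below the filter. The 3 brightest probe sets of SLC1A4, SLC7A1 and SLC38A1 lie below 0. The fourth lies at -0.33 and -0.47 for SLC1A4, at -0.16 and -0.0068 for SLC7A1, and near 0 for SLC38A1 (SRC-1 siRNA first). The dimmest of SLC1A4 (-0.36 and -0.27) and SLC7A1 (-0.17 and -0.29) are below 0, less far than the 3 brightest. The 3 of SLC7A6 spread from 0.094 to 1.27.

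On single probe sets, 12 of 22 tested were called lower and 2 higher with SRC-1 siRNA, beside 19.4% lower and 22.7% higher of all 24655. With control siRNA 13 were lower and 3 higher, beside 20.9% and 21.9%. Probe sets of a gene share its mRNA and are not independent.

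The log2 difference between related members was also taken within each array, for 4 pairs chosen after their values were seen, so these values are a description with no test. With glucose minus without, SLC3A2 shifted by -0.99 relative to SLC7A5, by -0.93 in the SRC-1 arm and -1.05 in the control arm. SLC7A6 shifted by 1.11 relative to SLC7A5. SLC1A4 shifted by -0.94 relative to SLC1A5, and SLC38A1 by -0.41 relative to SLC38A2.

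SRC-1 knockdown changed none of the tested transporters detectably in either medium. With glucose, 0 of 9 were called by limma, beside 0.00736% of all genes, and 0 had an unadjusted p under 0.05, beside 5.75% of all genes. Without glucose, 0 of 9 were called, beside 0.0221%, and 0 had an unadjusted p under 0.05, beside 3.19%. On the brightest probe set of each gene the differences lay between -0.040 and 0.088 with glucose and between -0.083 and 0.14 without. Over all 22 tested probe sets they lay between -0.25 and 0.16 with glucose and between -0.17 and 0.19 without, and 0 were called. The -0.25 ± 0.11 and the 0.19 ± 0.082 came from different dimmer probe sets of SLC7A1. The 2 siRNA groups did not overlap for 3 of 9 genes in each medium, near the 32.5% and 29.2% of all genes. The mean of both media also gave 0 of 9 calls, beside 0.0294% of all genes, with 0 at an unadjusted p under 0.05, beside 4.96%. For SLC7A5 the averaged difference was 0.036 (95% interval -0.065 to 0.14), and for SLC3A2 it was -0.0015 (-0.10 to 0.10).

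The glucose response did not differ detectably between the arms. The interaction, the glucose effect with SRC-1 siRNA minus that with control siRNA, was called by limma for 0 of 9 genes, beside 0% of all genes, and 0 had an unadjusted p under 0.05, beside 3.42%. SLC3A2 came nearest, at 0.16 ± 0.090 (unadjusted p = 0.109 and adjusted p = 0.999 in limma). Its SRC-1 siRNA arrays stood above the control arrays with glucose (0.079 ± 0.063) and below them without (-0.082 ± 0.063). By mean signal its groups ran 11.27 (control siRNA with glucose), 11.35 (SRC-1 siRNA with glucose), 12.19 (SRC-1 siRNA without) and 12.28 (control siRNA without). Neighbours within a medium did not pass the test, and the step between the media did.

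**Figure D3:**
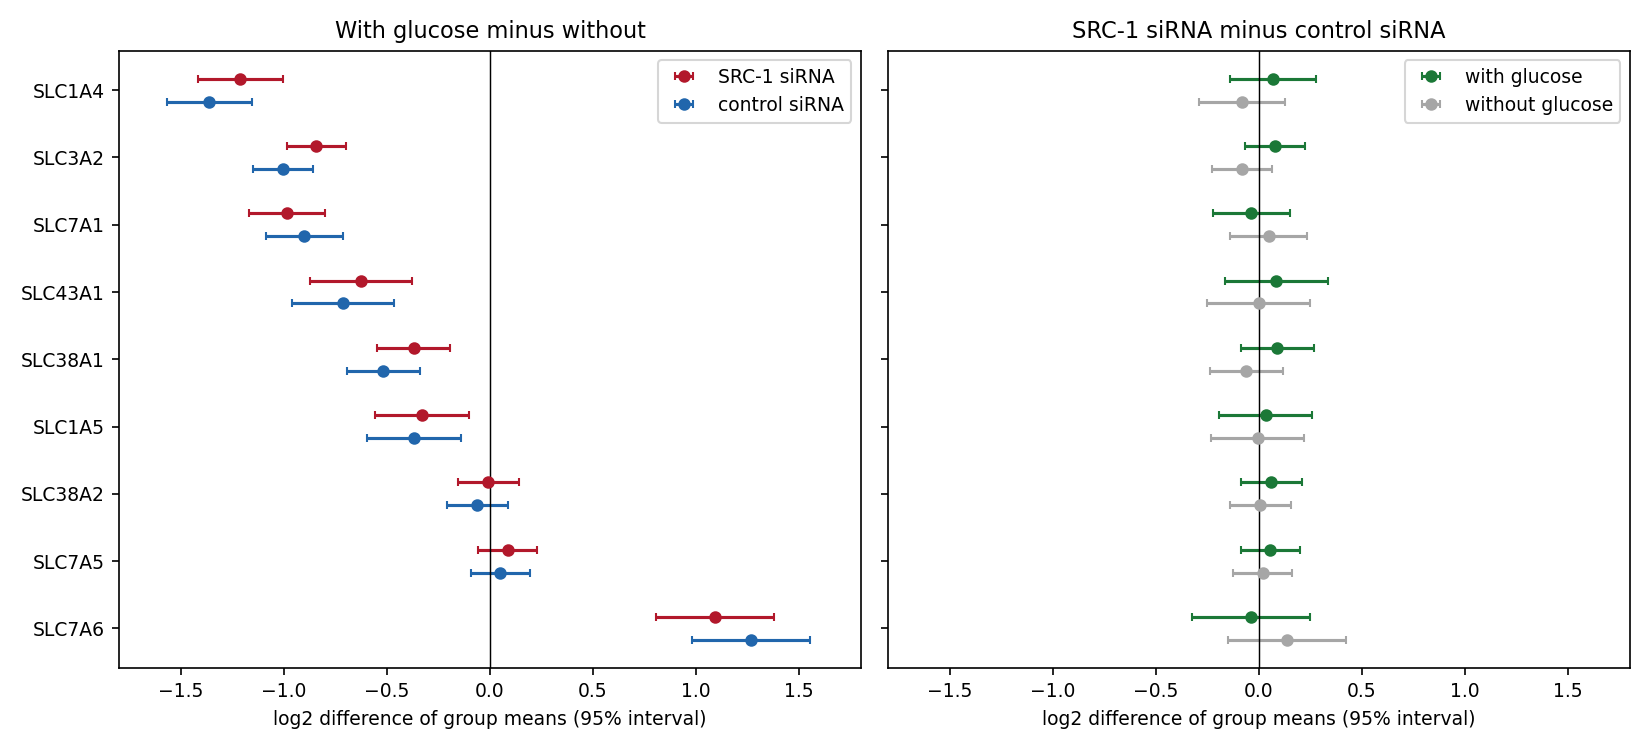
Log2 differences of group means with 95% intervals (x axis) for the 9 tested genes (y axis): with minus without glucose on the left, by siRNA, and SRC-1 minus control siRNA on the right, by medium. On the left the intervals of 6 genes lie below 0 and that of SLC7A6 above in both arms, and those of SLC7A5 and SLC38A2 hold 0. On the right every interval holds 0.

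Of 28 other plasma membrane amino acid transporters listed, 16 were tested. With SRC-1 siRNA 3 were lower and 4 higher with glucose, 7 in all, beside 44.7% of all genes called. With control siRNA 2 were lower and 4 higher, 6 in all, beside 45.2%. These shares lie near those of all genes, and the medians were 0.039 and 0.021. SLC6A15, a sodium-coupled carrier of branched-chain amino acids and proline, fell by 3.28-fold (-1.71 ± 0.12) and 3.25-fold (-1.70 ± 0.12). SLC1A1, a glutamate carrier, rose by 2.02-fold (1.01 ± 0.15) and 2.37-fold (1.25 ± 0.15). SLC3A1, the heavy chain of the cystine carrier of kidney and gut, rose by 0.79 ± 0.16 and 0.76 ± 0.16. SLC7A7 (y+LAT1), the relative of SLC7A6 that also pairs with SLC3A2, rose by 0.50 ± 0.090 and 0.52 ± 0.090. So both light chains of the y+LAT class were called higher with glucose, while their heavy chain was called lower.

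Of 8 lysosomal amino acid transporters 7 were tested, with 1 higher and 2 lower in SRC-1 siRNA cells, beside 44.7% of all genes called. With control siRNA 0 were higher and 2 lower, beside 45.2%, so neither count exceeded the share of all genes. The cystine exporter CTNS was lower (-0.53 ± 0.084 and -0.72 ± 0.084), as was SLC38A9, the arginine sensor of the lysosome (-0.41 ± 0.074 and -0.35 ± 0.074). SLC36A1 was called higher in SRC-1 siRNA cells (0.33 ± 0.079), its value in control siRNA cells was 0.18 ± 0.079, and the difference between arms was not called for any gene. SLC66A1 was not called (0.00021 and -0.20).

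Of 37 genes of mTORC1, its regulators and the amino acid sensors upstream of it, 34 were tested. With SRC-1 siRNA 10 were higher and 7 lower with glucose, beside 44.7% of all genes called, and with control siRNA 10 were higher and 9 lower, beside 45.2%. These counts lie near the shares of all genes, and the medians were -0.011 and -0.035. CASTOR2, a relative of the arginine sensor CASTOR1, was 3.25-fold and 3.04-fold higher, and FNIP2, a partner of folliculin, 2.28-fold and 2.25-fold higher. The leucine sensor SESN2 was 2.59-fold and 2.89-fold lower, and ITFG2, a subunit of the lysosomal KICSTOR complex, 2.68-fold and 2.85-fold lower.

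Of 19 kinases, factors and targets of the integrated stress response outside the transporters, all were tested, and 15 were lower and 4 higher with glucose in SRC-1 siRNA cells, beside 20.0% and 24.6% of all genes. In control siRNA cells 15 were lower and 3 higher, beside 21.6% and 23.6%. Their medians were -1.41 and -1.49. The 4 higher were ATF5 (0.70 and 0.67) and the kinases EIF2AK2 (0.63 and 0.69), EIF2AK4 (0.47 and 0.33) and EIF2AK1 (0.26 and 0.068). EIF2AK1 was not called in control siRNA cells, and the kinase EIF2AK3 was lower (-0.97 and -1.01). The factors DDIT3 and ATF3, the cofactor NUPR1 and the secreted STC2 had the smallest p, with changes from -4.36 to -2.09 in SRC-1 siRNA cells and from -4.40 to -2.09 in control siRNA cells. SRC-1 siRNA called no gene of these 4 lists in either medium.

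**Figure D4:**
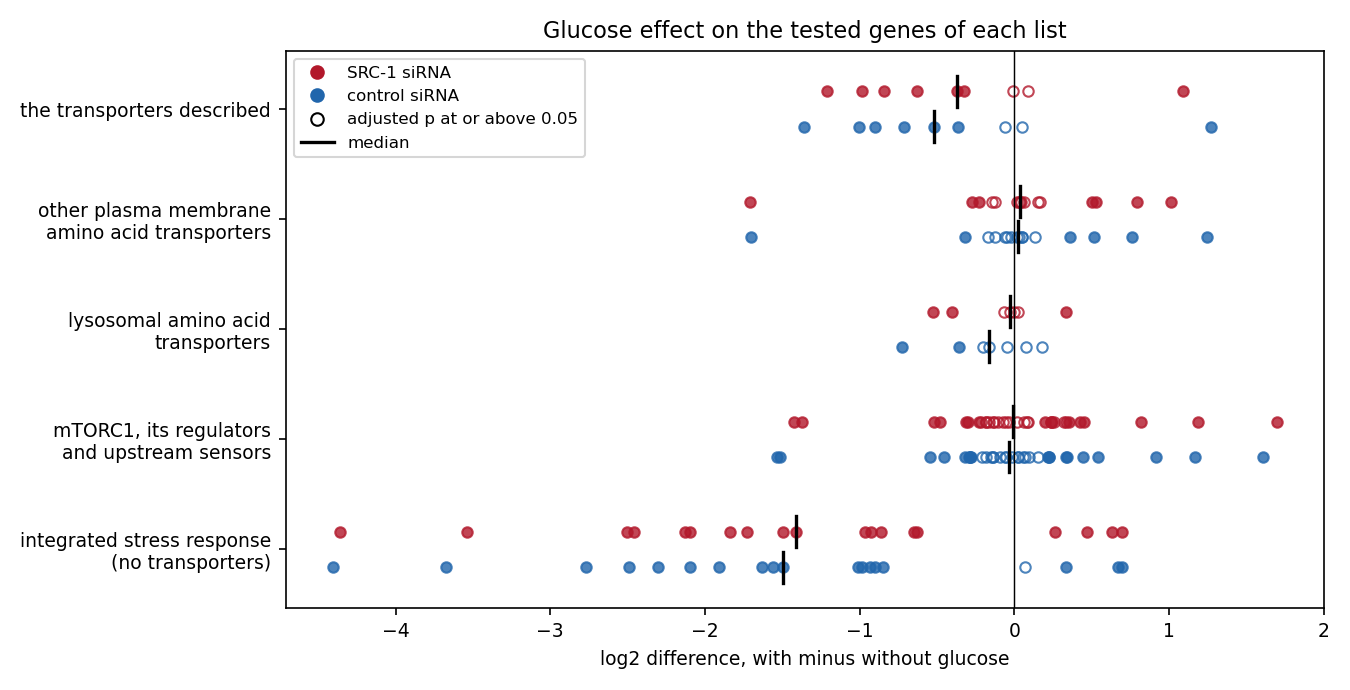
Log2 difference with minus without glucose (x axis) for each tested gene of 5 lists (y axis), with SRC-1 siRNA in red and control siRNA in blue; filled points passed an adjusted p of 0.05, and black bars are medians. The transporters described lie mostly below 0, the other transporters and the mTORC1 genes on both sides, and the stress response genes reach furthest to the left. The lists were drawn with earlier results of these data known, so the contrast between them is a description.

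The 5 genes whose profile over the 8 arrays was nearest to that of SLC7A5, by root mean square distance after centring, were LRPAP1, WDR45B, ANAPC15, NSFL1C and RETREG3. Their distances were 0.018 to 0.021 log2 units. They are genes that scarcely vary here, with glucose differences between 0.017 and 0.094. Among the members SLC38A2 was the nearest at 0.058, and SLC3A2 stood at 0.50.

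The 3' minus 5' signal of the GAPDH control probe sets, a reading of RNA integrity, averaged 0.157 with and 0.130 without glucose over 4 arrays each (two-sided exact permutation p = 0.0571). For beta-actin it averaged 0.573 and 0.480 (exact permutation p = 0.143). The part of these small shifts in the transporter values was not tested.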

How the data were processed

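The deposited table holds 54675 probe sets on 8 arrays and was used as log2 signal. The log base was inferred: neighbouring hybridization spikes stood 1.94, 2.00 and 1.87 units apart. Per the labels' protocols, RNeasy columns gave the RNA, which was made into biotinylated cRNA by the standard Affymetrix procedure. The authors' background correction, probe summary and normalization are not given in the sources used here, and no detection calls were used. Groups and replicate numbers came from the sample labels, and no more is known of how cultures were kept apart, so p-values cover only the spread among these arrays.

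Probe sets were named through the supplied platform annotation. Of them 62 were controls, 41091 had 1 gene (41037 matched to RefSeq, GRCh38.p14, by Entrez identifier), 1801 had several and 11721 were unnamed. A single limma fit (limma 3.58.1, R 4.3.3) of group means used all 8 arrays, with 4 residual and 4.35 prior degrees of freedom. Tests were two-sided and moderated, with Benjamini-Hochberg adjustment over 13584 genes, or 24655 probe sets in a separate fit, and a threshold of 0.05. A permutation test of 2 arrays against 2 cannot go below 0.333. Precision is limited by the number of arrays: the median SE of a log2 difference was 0.0834.

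The members and lists were chosen with earlier results of these data known. Named genes are the members, NCOA1, up to 4 genes per list with the smallest p for glucose with control siRNA, and the 5 nearest profiles to SLC7A5. The within-array pairs, the fit for SLC6A9 and the naming of ATF5 and the stress response kinases were added later. Alternatives were other normalizations, filters, probe set choices, priors, array weights, fewer groups, a replicate block and leaving out each array.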

Additional observations from a re-analysis of the deposited data

How the results depend on the processing

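When the _s_at and _x_at probe sets were set aside, 4 members (SLC7A1, SLC38A1, SLC1A5 and SLC43A1) had a probe set to test, and 4 were called with glucose in each arm, so fewer genes were tested. Under every other alternative run, 6 to 8 members were called in the glucose comparisons, and leaving out each array in turn gave 6 to 7 in each arm. No called member changed direction, and the 4 losses of a call, all of SLC1A5, came from leaving out 1 array. Without a filter SLC6A9 was tested too, and 8 members were called with control siRNA. Replicate numbers are shared by the groups, but deviations of same-numbered arrays correlated between -0.096 and 0.12. No strong shared shift was seen, which cannot show whether same-numbered cultures were handled together. With the replicate block 7 members were called in each glucose comparison and 0 in the siRNA comparisons. SRC-1 siRNA and the interaction gave 0 called members under every alternative. Over all genes, SRC-1 siRNA with glucose called 1 gene, 2 with a filter at the 60th percentile and 3 with a prior that follows mean signal. Without glucose it called 3 genes, 5 with that prior and 1 with no filter, the replicate block or only the groups compared. Averaged over media it called 4, and 7 with that prior. Leaving out an array gave 1 to 2 without glucose and 2 to 3 for the average. Signal over background could not be read, which limits what is known of SLC6A9 and SLC43A1.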
